A study of Drosophila melanogaster with 3 samples.

Results

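The replacement histone genes outside the repeated array were 4 of the 13945 protein-coding genes on the 6 chromosome arms examined. They were taken by name, His2Av, His3.3A, His3.3B and His4r, with earlier results of these data known. The data map the product of CG2116, an X-linked gene whose protein RefSeq calls uncharacterized, by chromatin immunoprecipitation followed by sequencing (ChIP-seq). The material was whole Drosophila melanogaster embryos of both sexes, collected over 0 to 24 h, from 1 transgenic line. That line carries CG2116 with eGFP at its C terminus, and chromatin was pulled down with an antibody to GFP. There was 1 group of 3 libraries, numbered biological replicates 1, 2 and 4. The promoter that drives the tagged gene and whether the embryos kept their own CG2116 are not stated in the labels. The labels name a possible control experiment, but no untagged line or input library was analysed here. With these lists alone, sites of CG2116 and sites that any GFP pull-down would give cannot be told apart. The age range mixes all stages of embryogenesis, and cell types are not separated.

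Most histone protein in a dividing fly embryo comes from a tandem array of replication-dependent genes for H1, H2A, H2B, H3 and H4, which are transcribed in S phase and whose mRNAs end in a stem-loop. Replacement histones are made from separate genes outside that array through the cell cycle and enter chromatin without DNA replication. His2Av encodes the only H2A variant of the fly, which combines the roles of mammalian H2A.Z at gene starts and of H2A.X at DNA breaks. His3.3A and His3.3B encode H3.3, which replaces H3 at transcribed genes, and His4r encodes an H4 outside the array.

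The start regions of the 4 genes shared only short exact stretches, and the proteins of the H3.3 genes are the same. The coding sequences of His3.3A and His3.3B were identical at 86.0% of 408 bp and encode the same 136 residues. Each differs from the H3 of the 23 array copies at 4 residues and matches their coding sequence at 78.2% to 80.4% of positions. His4r matches the 22 array copies of His4 at 83.5% to 83.8% of 309 coding bp, with at most 1 residue different. In windows of 300 bp at their first starts, the longest exact stretch shared by any 2 of the 4 genes was 9 or 10 bases. These windows run from 250 bp before to 50 bp after the first annotated start. A longest stretch and a percent identity are unlike measures, so coding sequences and start windows were not compared.

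The bases between each first start and the nearest upstream exon are shown because the summits of His2Av, His3.3B and His4r fall inside them. They are printed 5′ to 3′ along the histone gene from the RefSeq copy of dm6. Capitals mark ATCGAT in His2Av, a match looked for after this region was seen, and TATAAA in His3.3B. The regions are chr3R:26866808-26866928 (plus strand, 121 bases), chr2L:5055017-5055057 (plus, 41 bases), chrX:9156670-9156928 (minus, 259 bases) and chr3R:14625704-14625754 (plus, 51 bases).
His2Av: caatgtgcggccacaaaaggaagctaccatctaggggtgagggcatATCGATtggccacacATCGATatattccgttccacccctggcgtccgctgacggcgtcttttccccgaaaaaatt
His3.3A: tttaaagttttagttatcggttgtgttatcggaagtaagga
His3.3B: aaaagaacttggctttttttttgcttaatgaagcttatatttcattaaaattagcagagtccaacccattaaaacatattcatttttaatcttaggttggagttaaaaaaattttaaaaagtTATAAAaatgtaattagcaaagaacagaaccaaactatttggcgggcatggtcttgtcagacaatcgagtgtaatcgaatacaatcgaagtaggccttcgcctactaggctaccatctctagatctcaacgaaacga
His4r: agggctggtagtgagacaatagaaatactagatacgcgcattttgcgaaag

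GC content was 52.9% in the His2Av region, 43.1% at His4r, 32.8% at His3.3B and 31.7% at His3.3A. The upstream exon belongs to ball at His2Av, CG14036 at His3.3A and put at His4r, all read in the opposite direction. At His3.3B it is the far end of Ost48, which is read in the same direction. The IDR summit was base 34 of the region at His2Av, base 156 at His3.3B and base 16 at His4r. At His3.3A it lay past the region, in the 5′ untranslated region of the transcript from the first start, and the 30 bases on it hold the E-box CAGCTG in capitals (chr2L:5055078-5055107, plus strand).
His3.3A: tcaaacCAGCTGtcaagatattgaccttat

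All 4 genes had a CG2116-eGFP summit at a start in each of the 5 dm6 peak lists. A gene was called where at least 1 of its transcription start sites had a summit no more than 500 bp away. The IDR list (irreproducible discovery rate) keeps the 7137 peaks that passed the depositors' IDR filter, and it called 42.6% of all protein-coding genes. The pooled list called 60.4%, and the lists of replicates 1, 2 and 4 called 59.2%, 58.5% and 60.3%. With 4 genes a full count says little beside these shares, and it was not tested. The pooled list and each replicate list hold 30000 candidate peaks, most of which did not pass IDR. The signal of a peak is the caller's own value and depends on depth, which is unknown here. It is therefore given as a multiple of the median signal of the same list.

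His2Av (FBgn0001197, 3R, 26866929 to 26869220, plus strand) carried the strongest peak of the 4. Its signal was 96.4 times the list median in replicate 1, 79.1 times in replicate 2 and 95.1 times in replicate 4, a mean of 90.2 ± 9.66 (SD, n = 3). All 3 values were high, with replicate 2 the lowest. The peak ranked 118, 135 and 111 among the 30000 of these lists. In the pooled signal it stood at 101.2 times the median (3R, 26866455 to 26867203) and was 123rd of the 7137 IDR peaks.

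His3.3A (FBgn0014857, 2L, 5055058 to 5056149, plus strand) came next, at 12.4 times the list median in replicate 1, 9.64 times in replicate 2 and 13.9 times in replicate 4, a mean of 11.96 ± 2.14 (SD, n = 3). The pooled peak (2L, 5054946 to 5055239) stood at 13.5 times the median and was 705th in the IDR list. The 3 values of His3.3A lay below all 3 of His2Av and above all 3 of the other two genes.

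The second H3.3 gene, His3.3B (FBgn0004828, X, 9152523 to 9156669, minus strand), had a weaker peak. Its signal was 5.005 times the list median in replicate 1, 4.58 times in replicate 2 and 8.28 times in replicate 4, a mean of 5.96 ± 2.02 (SD, n = 3). Replicate 4 was the high library. The pooled peak (X, 9156653 to 9156872) stood at 7.01 times the median, 1950th in the IDR list.

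His4r (FBgn0013981, 3R, 14625755 to 14626614, plus strand) had 8.28 times the list median in replicate 1, 3.65 times in replicate 2 and 7.83 times in replicate 4, a mean of 6.59 ± 2.55 (SD, n = 3). Replicate 2 was low, at 0.454 of the mean of the others, and its peak there ranked 4142 against 1424 and 1413. Over the 5887 genes with an IDR summit and a summit in each replicate, the same ratio had a median of 0.954. The pooled peak (3R, 14625627 to 14625799) stood at 7.41 times the median, 1786th in the IDR list.

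**Figure D1:**
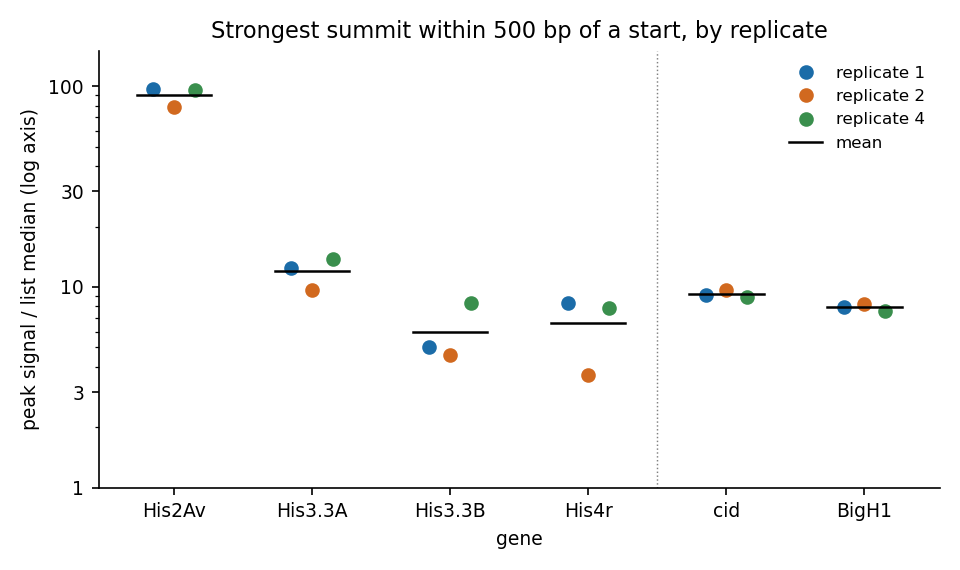
Signal of the strongest summit within 500 bp of a start, divided by the median of the same replicate list (log axis), for the 4 replacement histone genes and, right of the dotted line, cid and BigH1. Points are the 3 replicates and bars their means; His2Av lies between 79.1 and 96.4, and the points of His3.3B and His4r overlap.

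Within each library His2Av exceeded His3.3A by 6.87 to 8.21 times, a mean log2 difference of 2.93 ± 0.132 (SD, n = 3). The same peak exceeded that of His3.3B by 11.5 to 19.3 times and that of His4r by 11.7 to 21.6 times. His3.3A exceeded His3.3B by 1.67 to 2.48 times and His4r by 1.497 to 2.64 times, in 3 of 3 libraries each. An exact two-sided sign-flip permutation test over 3 libraries gave p = 0.25 for each of these 5 pairs, the smallest value it can give (0.3 after Benjamini-Hochberg adjustment over the 6 pairs compared), so these differences are a description of order. His3.3B and His4r could not be ordered: His3.3B was higher in 2 of 3 libraries and its mean log2 difference was -0.11 ± 0.55 (SD, n = 3, exact p = 1).

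The replicates differed most at the weaker genes, His3.3B and His4r. The coefficient of variation was 10.7% at His2Av, 17.9% at His3.3A, 34.0% at His3.3B and 38.7% at His4r. Its median over the 5887 genes was 16.9%, with quartiles of 10.4% and 25.2%. His4r varied more than 92.7% of those genes and His3.3B more than 88.1%. The deposited −log10 q of the 4 peaks was the highest value of the list in all 5 lists, so it does not separate the 4 genes. That value was shared by 91.9% of IDR peaks, 21.9% of pooled peaks and 22.3%, 22.8% and 16.1% of the peaks of replicates 1, 2 and 4.

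Among the 5941 genes with an IDR summit, the median pooled signal was 6.12 times the list median, with quartiles of 3.99 and 10.1. His2Av was stronger than 97.1% of these genes and His3.3A than 83.9%. His4r was stronger than 60.9% and His3.3B than 57.6%, near the middle of the range. The genes just above and below His2Av in pooled signal were CG30383 at 101.7 and Mettl4, a methyltransferase gene, at 101.1 times the median. Beside His3.3A stood Brd8, a bromodomain subunit of the Tip60 complex, at 13.5, and CG3437, also at 13.5. Around His4r were CG11367 at 7.41 and CG3085, also at 7.41. Around His3.3B were the replication origin gene Orc6 at 7.01 and CG32095, also at 7.01. These neighbours share a level in 1 condition only.

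**Figure D2:**
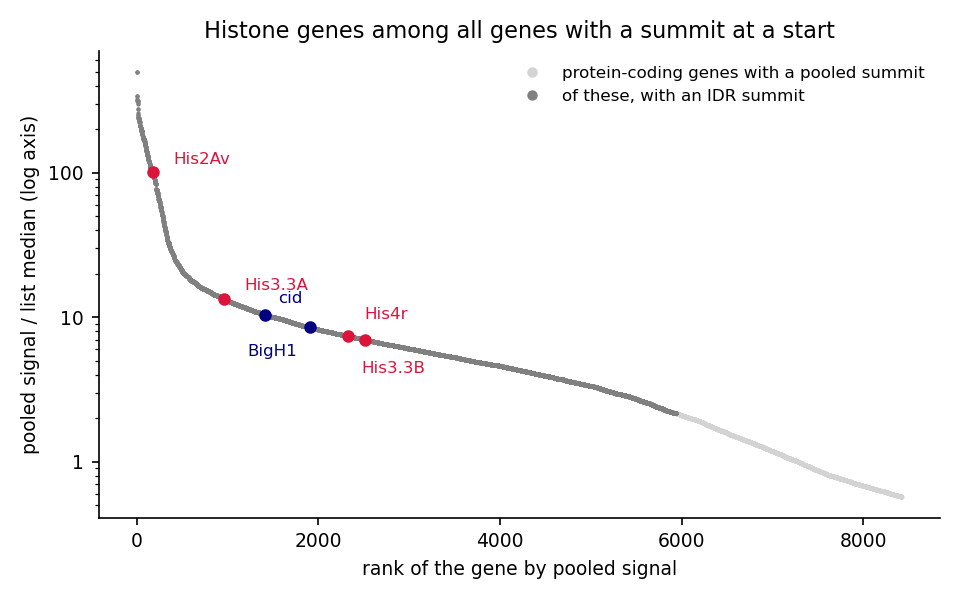
Pooled signal over the list median (log axis) against the rank of each protein-coding gene with a pooled summit within 500 bp of a start; darker points have an IDR summit. His2Av sits on the steep left end at 101.2 times the median, His3.3A at 13.5, and His4r and His3.3B at 7.41 and 7.01 on the flat middle.

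Of the 4 genes, His2Av had the most tightly placed summit. It lay 88 bp upstream of the only annotated start in the IDR list, and the 3 replicate summits fell within 4 bp of each other. At His4r the IDR summit lay 36 bp upstream of the first start, and the replicate summits spanned 17 bp. His3.3A had its IDR summit 35 bp downstream of the first start and so upstream of the second of its 2 starts. The replicate summits there spanned 46 bp. The median over all genes with an IDR summit was 86 bp upstream, and 89.6% of those summits were upstream.

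His3.3B has 3 annotated starts, and the IDR summits by its starts lay nearest to the first and to the second. The IDR summit by the first start lay 104 bp upstream of it, and the replicate summits spanned 64 bp. A second IDR peak (X, 9155095 to 9155594) had its summit in an intron, 268 bp inside the second start, at 2.39 times the pooled list median against 7.01 for the first. In this inner region replicate 1 had 1 summit, at 2.87 times its list median and 13 bp upstream of the second start. Replicate 2 had 2, at 2.86 times and 185 bp inside that start, and at 1.42 times and 56 bp upstream of it. Replicate 4 also had 2, at 2.16 times and 252 bp upstream of the third start, and at 0.898 times and 147 bp inside the second. The inner signal was thus present in 3 of 3 libraries, with a position that differed between them. IDR peaks away from the starts were stronger than the inner IDR peak. They stood at 3.77 times the pooled list median, 1876 bp upstream of the first start, and at 3.12 times, 2747 bp past the third. Use of the inner starts was not tested.

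Replicate 2 had the most summits at each of these genes. It had 2 summits within 500 bp of a start at His2Av, 3 at His3.3A, 4 at His3.3B and 3 at His4r. Replicate 1 had 1, 2, 2 and 1, and replicate 4 had 1, 1, 3 and 1. The extra summit of His2Av in replicate 2 lay 118 bp downstream of the start at 16.3 times the median. The extra summits of His4r there were weak and apart from the main one. They stood at 1.46 times the median, 468 bp upstream of the first start, and at 0.565 times, 162 bp inside the second. The median peak width of replicate 2 was 600 bp, against 530 bp in replicate 1 and 444 bp in replicate 4. The part of this width in the low value of His4r was not tested.

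**Figure D3:**
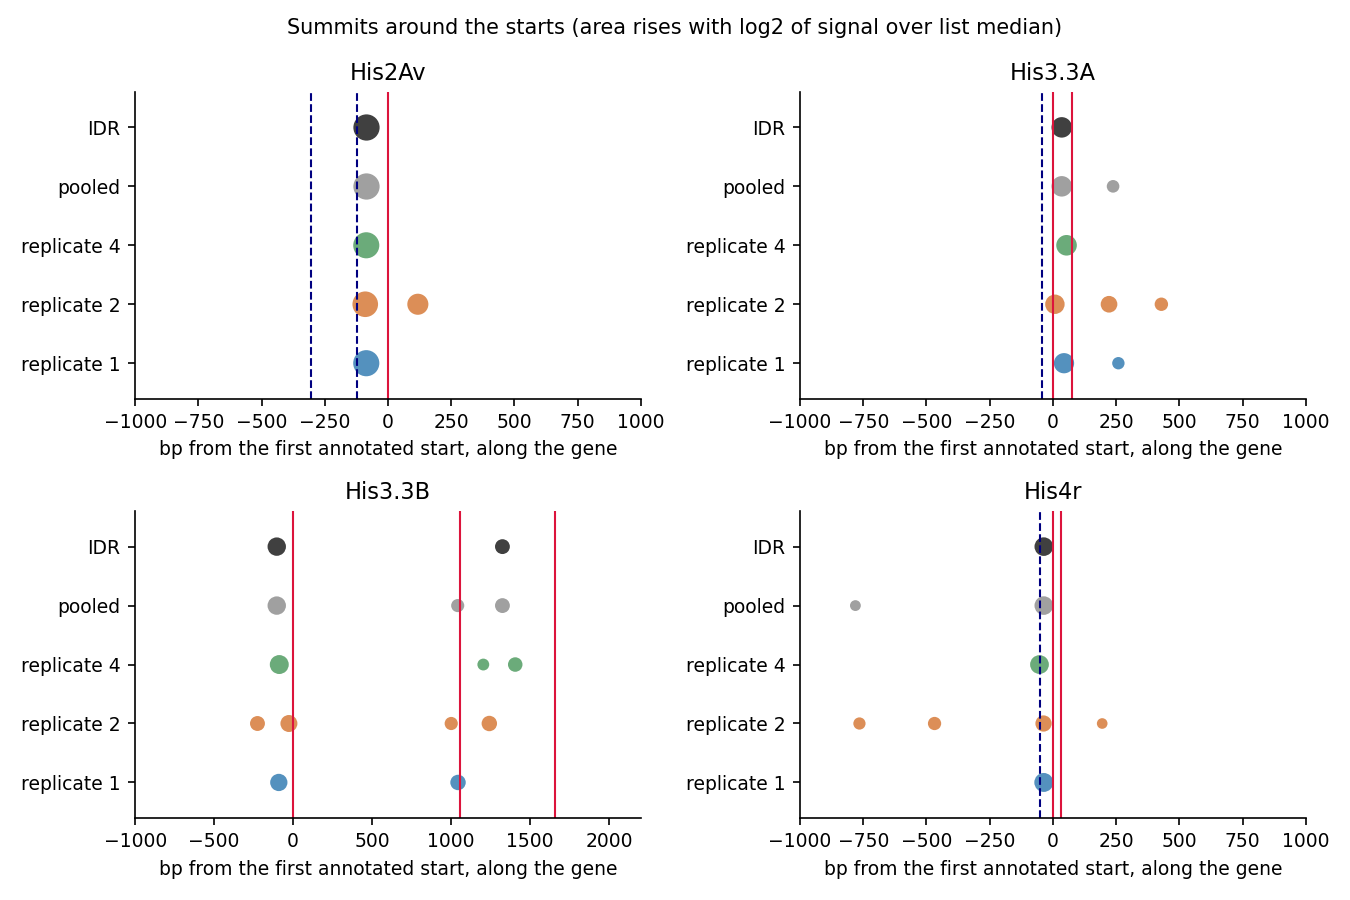
Summits of the 5 peak lists along the 4 genes, in bp from the first annotated start along the gene. Point area rises with log2 of the signal over the list median (for the IDR list, over the pooled median). Red lines are the gene's own starts and dashed blue lines those of the gene on the other strand; at His3.3B a second group of summits lies around the inner starts.

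Of the 4 genes, His2Av, His3.3A and His4r share their start region with a gene read the other way. Starts of opposite genes within 500 bp were found at 27.8% of all protein-coding genes and at 53.1% of those with an IDR summit. The nearest start of ball, which encodes a kinase that phosphorylates nucleosomal histones, is 122 bp from that of His2Av. The His2Av summit lay 34 bp upstream of that ball start. CG14036 starts 42 bp from His3.3A, and the summit lay 77 bp upstream of it. The start of put, which encodes a type II receptor of the TGF-beta family, is 52 bp from that of His4r, and the summit lay 16 bp upstream of it. At these 3 loci the same peak is assigned to both genes, so its signal cannot be given to either alone. His3.3B had no start of another protein-coding gene within 500 bp of its IDR summit by the first start.

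Exact motif matches were few. The DNA replication-related element TATCGATA was in none of the 4 start windows, against 9.36% of all windows and 19.8% of those of genes with an IDR summit. GGTCACACT, the core of the core promoter motif bound by M1BP, was also in none (6.05% and 11.9%), as was GCAACNCT (6.56% and 10.4%). CAGCTG was in the window of His3.3A alone (17.7% of all windows and 23.2% of those of genes with an IDR summit). GAGAG (29.7% and 24.2%) and TATAAA (45.8% and 45.8%) were in that of His3.3B alone. Both strands were searched. Around summits, CAGCTG began 9 bp before the IDR summit of His3.3A and GGTCACACT began 39 bp after it. The GGTCACACT match lay 74 bp inside the first start and outside the start window, which was set by the first start only. It spans the second annotated start of His3.3A (2L, match 5055132 to 5055140, start 5055134). Within 100 bp of the summit, CAGCTG and GGTCACACT occur at 15.8% and 7.84% of the 5166 IDR summits near protein-coding starts.

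His2Av held ATCGAT, the inner 6 bases of TATCGATA, at 13 and 28 bp after the summit. Neither copy is a full TATCGATA. ATCGAT was in the windows of 23.3% of all genes and of 39.9% of genes with an IDR summit, and within 100 bp of 33.5% of the 5166 summits. It was in none of the windows of the other 3 genes. The windows of cid and BigH1, the histone genes described below, also held it. Copies there began 93 bp before the IDR summit of cid and 18 bp after that of BigH1. A match describes these letters only, and no factor was measured here.

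The other single-copy histone genes, cid and BigH1, were also called. cid encodes the centromeric H3 variant and BigH1 the linker histone of early embryos and germ cells. cid stood at 9.12, 9.61 and 8.90 times the list median in replicates 1, 2 and 4, a mean of 9.21 ± 0.368 (SD, n = 3). BigH1 stood at 7.92, 8.24 and 7.56 times, a mean of 7.91 ± 0.341 (SD, n = 3). Both varied less between libraries than His3.3B or His4r, with coefficients of variation of 3.99% and 4.31%. Both lay below His3.3A in 3 of 3 libraries, although in replicate 2 cid was at 9.61 against 9.64. Their summits lay 102 bp and 248 bp upstream, and each is shared with a start on the other strand, of cbc and of Rad17.

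The array copies had no peak in any list. The 111 annotated array genes span 125 kb of 2L (21416953 to 21541681), and none of them was called. No peak of the 5 lists overlapped this span, while 2L as a whole held 5.58 IDR and 23.7 pooled summits per 100 kb. The nearest pooled summits lay 19.6 kb before and 15.6 kb after it. These copies are repeats of each other, and how reads that map to several places were treated is not stated in the labels or file descriptions. Absence of peaks there is therefore not a measure of binding at the array.

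Listed genes of histone deposition, of H2Av exchange and of array histone transcription and mRNA processing were almost all called. Of 50 genes in 3 lists, 49 had an IDR summit at a start, against 42.6% of all protein-coding genes. None was as strong as His2Av in pooled signal. Their share was not tested. Of these 49 genes, 36 share their summit with at least 1 other protein-coding gene, as do 57.4% of all genes with an IDR summit, and such a signal cannot be given to 1 gene alone. XNP, Ino80, Sym and Slbp are among the 36, while dom, Hira and Clamp are not. In what follows a value with an SD is the mean over the 3 replicate lists, in multiples of the list median, and a list's median is of pooled signal.

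Among 18 listed histone chaperone and H3.3 deposition genes 17 were called. Those called had a median pooled signal of 10.7 times the list median, against 6.12 for all genes with an IDR summit. XNP, the fly relative of the ATRX remodeller that works with H3.3, led at 57.4 ± 4.45 (SD, n = 3), ahead of the gene of the mid-sized subunit of the CAF-1 chaperone at 45.0 ± 5.79. The H3.3 chaperone genes Hira, yem and Daxx stood at 11.1 ± 1.07, 12.7 ± 3.22 and 7.17 ± 0.66. The remodeller gene Chd1 and CG5815, for which Spt2 is a synonym, stood at 16.2 ± 1.95 and 14.4 ± 2.14. Nph and Nlp, nucleoplasmin family genes with 1 shared peak, stood at 14.2 ± 0.883. Nap1, Caf1-55, Nasp, asf1, Ssrp, cal1, the gene of the large CAF-1 subunit and dre4 were called at means from 9.70 down to 3.81. Spt6 had no IDR summit, with a pooled summit at 1.94 times the median.

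All 20 listed genes of the DOM/Tip60 and INO80 complexes, which place or act on H2Av, were called. Their median was 5.61, against 6.12 for all genes with an IDR summit. dom, the ATPase that exchanges H2Av, led at 43.5 ± 7.95 (SD, n = 3), with its summit 477 bp inside a start. Ino80 stood at 22.1 ± 1.06, Gas41 at 13.4 ± 1.82 and Brd8 at 11.8 ± 1.44. Ing3, Bap55, Eaf6, MRG15, pont and rept had means from 6.94 to 5.29. MrgBP, Tip60, Arp8, YL-1, Arp5, Arp6, E(Pc), Nipped-A, DMAP1 and Act87E lay between 4.30 and 1.80.

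All 12 listed genes for factors of the array's transcription and mRNA processing were called, with a median of 6.53, against the same 6.12. Sym, a scaffold of the cleavage complex, stood at 20.4 ± 3.99 (SD, n = 3), and Slbp, which binds the histone mRNA stem-loop, at 19.1 ± 1.22. FLASH, a component of the histone locus body, stood at 10.3 ± 1.06, and mxc and mute of the same body at 5.53 ± 0.672 and 5.59 ± 0.183. Hers, CstF64, Cpsf73, Cpsf100, Lsm11 and Lsm10 had means from 6.79 to 2.98. Clamp, which binds GA repeats of the array, stood at 2.35 ± 0.589.

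**Figure D4:**
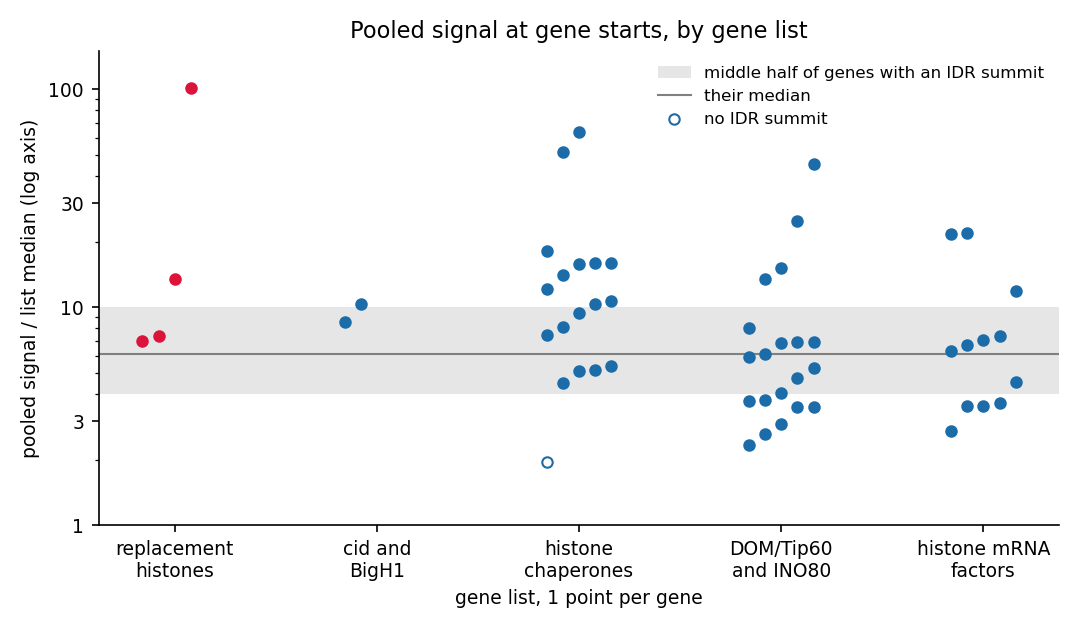
Pooled signal over the list median (log axis) for the 4 replacement histone genes (red) and the genes of the other lists (blue), 1 point per gene. The grey band covers the middle quartiles, 3.99 to 10.1, of genes with an IDR summit and the line their median of 6.12; the open point is Spt6, with no IDR summit, and His2Av at 101.2 is the highest point.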

How the data were processed

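The authors deposited dm6 peak lists for each of the 3 libraries, for the pooled libraries and after IDR filtering, per the deposited file descriptions. Aligner, peak caller, versions, IDR threshold and depth are not named in the labels or file descriptions. The signal column deposited with the peaks comes from the caller and was divided by the median of all peaks in its list. The −log10 q deposited for each peak was used only as a description. The 5 dm3 lists were not used, to keep to 1 build.

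Starts came from Ensembl release 115 (dm6 coordinates, 1-based) and sequence from RefSeq's copy of the assembly. A gene took the strongest summit within 500 bp of any of its starts. The labels call the libraries biological replicates, each with its own biosample, but do not describe how embryos were collected for each, so their spread may be partly technical. The 6 pairs of genes were compared with an exact sign-flip permutation test on log2 ratios within libraries.

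Named were the 4 genes, cid and BigH1, genes sharing a summit, the nearest genes in pooled signal and all genes of the 3 lists. The members, lists and motifs were chosen with earlier results of these data known, and ATCGAT was added after the His2Av region was seen. Matching of summits and motifs was tested on simulated data. Python 3.11.15, pandas 2.3.3, numpy 2.4.6, scipy 1.17.1 and matplotlib 3.10.9 were used.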

Additional observations from a re-analysis of the deposited data

How the results depend on the processing

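Of 54 alternative values, 6 moved by more than the replicate SD (signal) or by more than 1.5 times (counts and shares). Leaving out 1 of 3 values always shifts their mean by less than their SD. The means without 1 replicate, which are among the 54, therefore could not be counted as moved. The differences between genes were recomputed only with the summit nearest to a start, and there none changed direction. The order of His3.3B and His4r was not stable: without replicate 1 the mean was 6.43 at His3.3B and 5.74 at His4r. With the median over summits matched to IDR peaks as the denominator, the mean signal was 21.98 at His2Av, 2.91 at His3.3A, 1.45 at His3.3B and 1.60 at His4r, since those medians are higher, and the ratios between genes in a library are the same by construction. Leaving out each replicate gave 87.1 to 95.8 at His2Av, 11.0 to 13.1 at His3.3A, 4.79 to 6.64 at His3.3B and 5.74 to 8.05 at His4r. Windows of 250 and 1000 bp and the IDR peaks above that list's median signal kept all 4 genes called, with 37.7%, 45.6% and 29.4% of all protein-coding genes and 46, 49 and 37 of the 50 listed genes. With the summit nearest to a start, His3.3B stood at 5.24 and its log2 difference from His4r was -0.37. Within 100 bp of the IDR summit, GGTCACACT was found at 1 gene and GAGAG at 0, because these windows cover other bases. No paired analysis was possible because there is a single group, so no replicate numbers are shared between groups. The comparisons between genes were made within libraries. Depth is unknown, so the precision of a single value is known only from the 3 libraries.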
